A study of Mus musculus with 2 samples.

Results

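The genes described here are the Gpr genes, a numbered series named for G protein-coupled receptors, by order of cloning before a ligand was known. They were taken by name alone, so not every member need encode such a receptor. Gpr141b is annotated as a long non-coding RNA. The series was the genes of both count tables whose name is Gpr, a number and at most 1 letter, with Gpr183 left out, which gave 69 of the 27032 genes in the files. The samples were 2 wild-type samples, called samples 1 and 2, of spleen cells enriched for CD11c with magnetic beads, from adult mice, with the number of mice behind a sample not stated in the sources available. Both belonged to 1 condition, so the comparisons are between cell classes within these samples. Cells were captured singly with the BD Rhapsody instrument, and each transcript was counted once by its unique molecular identifier (UMI).

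G protein-coupled receptors cross the membrane several times and pass a signal from outside the cell to G proteins inside it, which then act on cAMP, calcium or the cytoskeleton. Some members of the numbered series have since been tied to protons, lysophospholipids or metabolites of tryptophan, others are still without an agreed ligand, and several sit on the membranes of lysosomes or the Golgi rather than on the cell surface. In the spleen, receptors of this class guide where dendritic cells (DCs) and lymphocytes settle and let them sense acid, lipids and damaged cells.

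Cells were placed in 9 classes by UMI minimums on genes outside the series, taking the first class that matched. Macrophages held at least 20 UMIs of Vcam1 and 5 of C1qb, mature DCs 2 of Ccr7 and 1 of Fscn1, type 1 conventional DCs (cDC1s) 2 of Clec9a and 1 of Xcr1, and plasmacytoid DCs (pDCs) 3 of Siglech and 1 of Ccr9. B cells held at least 3 UMIs of Cd79a, T cells 2 of Cd3e, NK cells 1 of Ncr1, DCIR2 cDC2s (type 2 conventional DCs) 2 of Clec4a4, and CLEC10A cDC2s 2 of Clec10a and Cd209a together. After filtering, 2928 and 2725 of the 3308 and 3085 deposited cells remained, and 2312 and 2123 of these fell in a class. The classes held between 13 cells (pDCs of sample 1) and 684 cells (cDC1s of sample 1), and their summed depth lay between 187601 and 13271670 UMIs. Marker genes that the thresholds do not use were compared between their own class and all other classed cells pooled. They were higher in both samples for all markers of 8 classes and for 6 of 7 of CLEC10A cDC2s, where Csf1r was not. Of the pDCs, 6 of 13 and 12 of 19 cells also met the minimum of CLEC10A cDC2s, and of the DCIR2 cDC2s 209 of 556 and 156 of 456 did. In what follows a level is in CPM, the UMIs of a gene per 1000000 UMIs of its class in a sample. The 5 erythroid markers summed to 3742 and 914 CPM in the macrophages and to between 5.33 and 122 CPM elsewhere, and the 7 cDC1 markers to 1838 and 1875 CPM in the macrophages against 6085 and 6179 CPM in cDC1s, with Cadm1 alone at 1119 and 1199 CPM in the macrophages. Of the cDC2 lists, the 7 DCIR2 cDC2 markers summed to 1319 and 1297 CPM in their own class. They summed to 1283 and 1360 CPM in the macrophages and to 1091 and 1081 CPM in CLEC10A cDC2s. The 7 CLEC10A cDC2 markers summed to 2784 and 3537 CPM in their own class and to 5085 and 7044 CPM in the macrophages. The part of these sums in the macrophage results was not tested. Of the 7 NK cell markers, Ccl5 stood at 3047 and 2890.0 CPM in the mature DCs, and the other 6 together at 13.2 and 5.50 CPM, against 5689 and 6585 CPM in NK cells. In the T cells these 6 stood at 274 and 943 CPM. The CLEC10A cDC2 markers summed to 2153 and 1409 CPM in NK cells. The part of these sums in the T cell and NK cell results was not tested. Levels are compared between classes and not between genes, since intronic reads were counted and add UMIs to genes with long introns. Shares of a gene among all Gpr UMIs describe the counts only.

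The 250 bases before the start are given for 4 genes that differed between cDC1s and cDC2s, picked after their values were seen as examples of both directions and of a pair of neighbours, from RefSeq on GRCm38.p6, 5′ to 3′ on the strand of the gene. Gpr141b, Gpr33 and Gpr4 were highest in cDC1s, and Gpr141 lies next to Gpr141b on chromosome 13 and was lowest in cDC1s among the conventional DCs. Capitals mark matches on either strand to GAAA followed after any 2 bases by GAAA, a pair of the core sites of interferon regulatory factors (IRFs), or to GGAA followed after any 2 bases by GAAA, the composite of an ETS site and an IRF site that IRF4 and IRF8 bind together with PU.1.
Gpr141b (chr13:19732952-19733201, minus strand): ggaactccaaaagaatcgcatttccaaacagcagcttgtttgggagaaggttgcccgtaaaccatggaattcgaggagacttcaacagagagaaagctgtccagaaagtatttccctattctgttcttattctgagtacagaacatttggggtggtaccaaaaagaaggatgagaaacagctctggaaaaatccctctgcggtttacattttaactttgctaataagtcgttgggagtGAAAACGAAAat
Gpr33 (chr12:52028064-52028313, minus strand): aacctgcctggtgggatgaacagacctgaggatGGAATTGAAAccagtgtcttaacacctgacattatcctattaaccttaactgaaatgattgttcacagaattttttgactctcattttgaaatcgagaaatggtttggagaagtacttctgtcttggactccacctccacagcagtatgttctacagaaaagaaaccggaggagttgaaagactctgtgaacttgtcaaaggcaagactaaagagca
Gpr4 (chr7:19212288-19212537, plus strand): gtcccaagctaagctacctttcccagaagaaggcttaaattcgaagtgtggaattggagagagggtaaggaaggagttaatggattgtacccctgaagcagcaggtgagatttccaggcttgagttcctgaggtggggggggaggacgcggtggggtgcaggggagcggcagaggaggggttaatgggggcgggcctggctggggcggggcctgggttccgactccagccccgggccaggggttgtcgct
Gpr141 (chr13:19824258-19824507, minus strand): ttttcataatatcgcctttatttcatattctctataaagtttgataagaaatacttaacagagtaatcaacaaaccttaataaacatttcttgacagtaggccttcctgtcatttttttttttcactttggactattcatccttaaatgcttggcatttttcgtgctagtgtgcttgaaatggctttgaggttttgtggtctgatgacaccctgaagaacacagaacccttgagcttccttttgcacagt
Gpr141b held 1 match to the paired motif, which ends 2 bases before the start, and Gpr33 held 1 match to the composite motif. The windows of Gpr4 and Gpr141 held none, and none of the 4 held GAGGAA (an ETS core of the kind PU.1 uses) or TGANTCA (AP-1). Among 32817 promoter windows of the same length, 2.97% held the paired motif, 2.30% the composite motif, 23.3% GAGGAA and 6.75% TGANTCA. The GC content was 41.2%, 40.8%, 61.2% and 34.8%, beside a median of 52.4% over all windows. A match of letters does not show that a factor binds there.

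The Gpr genes gave 154333 UMIs in the kept cells, and a few genes gave most of them. No UMI was counted for Gpr101, Gpr12, Gpr25 and Gpr62 in any deposited cell, and 5 genes had none in the kept cells, while 36 had 1 to 100 UMIs, 28 more than 100 and 19 more than 1000. The 5 genes with the most UMIs were Gpr132, Gpr65, Gpr141b, Gpr141 and Gpr35, with 72.4% of the total. Together the series amounted to 2467 and 2530 CPM in cDC1s and 887 and 885 CPM in B cells, the highest and the lowest of the classes, and these did not overlap. Gpr141b, annotated as a long non-coding RNA, gave 775 and 756 CPM of the cDC1 sums. Mature DCs came next at 1992 and 2118 CPM, with 33.4 and 26.0 CPM of Gpr141b. Without this gene cDC1s would therefore not be the highest class. Of the 69 genes, 27 reached 10 CPM in both samples of at least 1 class, 6 of them in exactly 1 class, and 3 (Gpr132, Gpr65 and Gpr107) in all 9.

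**Figure D1:**
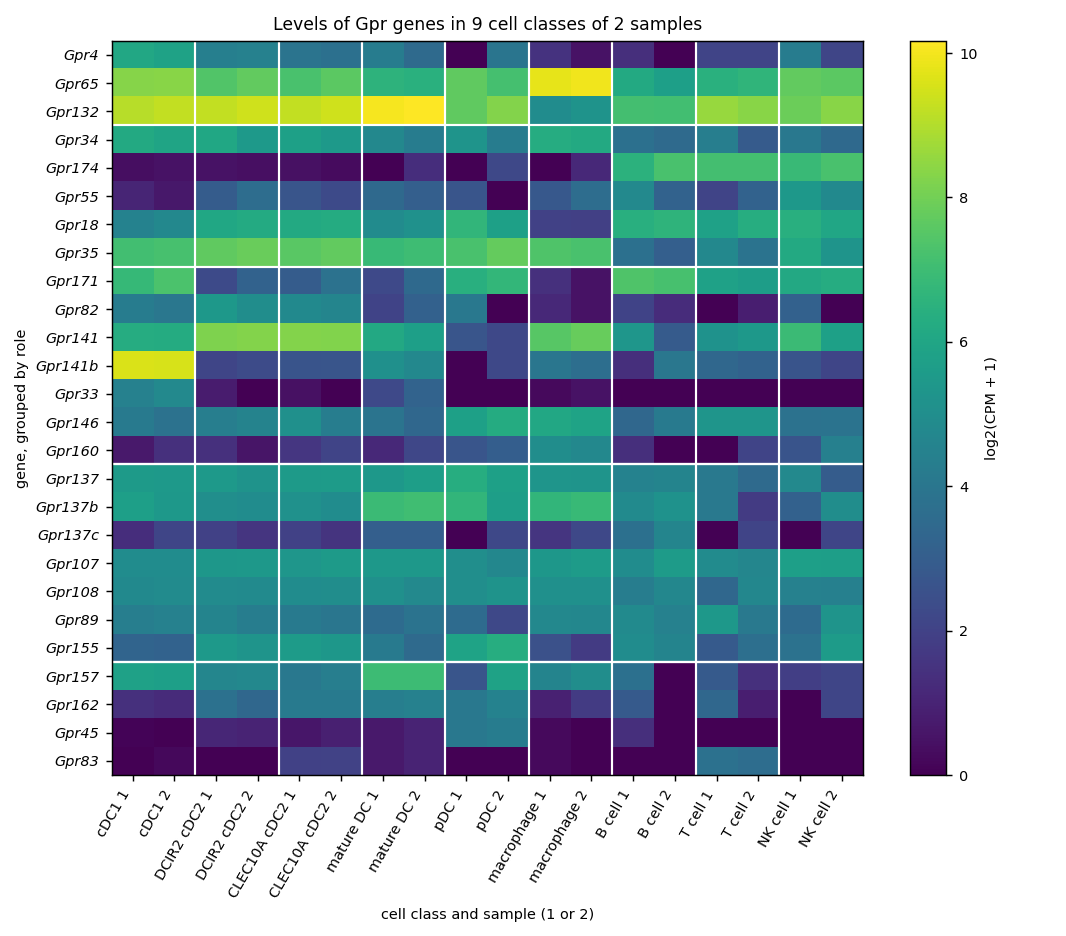
Level of Gpr genes that reached 10 CPM and were called higher in a class, as log2(CPM + 1), in each cell class of samples 1 and 2 (columns), with genes grouped by role (rows). Both samples of a class have close colours in most rows, with Gpr141b bright in cDC1s, Gpr65 in macrophages, Gpr132 in mature DCs and Gpr174 in B, T and NK cells; rows are to be read across and not against each other.

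Each class was compared with all other classed cells by edgeR's quasi-likelihood test on the UMI sums of both samples, with p-values adjusted after Benjamini and Hochberg across every tested gene, and a gene was called when its adjusted p was below 0.05. All p-values measure the spread between these 2 samples only. Enough UMIs for a test in at least 1 comparison were present for 38 of the 69 genes, and 31 were too sparse for any. Of those 38 genes, 32 were called in at least 1 of the 9 class comparisons, beside 75.2% of all genes tested, and Gpr1, Gpr149, Gpr158, Gpr179, Gpr180 and Gpr19 in none of them.

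In macrophages, 9 of the 35 Gpr genes tested were higher and 13 were lower, beside 27.1% and 28.1% of all genes. In mature DCs the counts were 7 and 8 of 34 (all genes 15.3% and 14.7%), in cDC1s 8 and 11 of 36 (21.2% and 22.9%), and in pDCs 2 and 4 of 34 (1.89% and 2.92%). In B cells 6 genes were higher and 13 lower of 34 (11.2% and 17.4%), in T cells 2 and 13 of 33 (10.2% and 15.4%), and in NK cells 2 and 6 of 32 (5.15% and 6.44%). DCIR2 cDC2s had 7 higher and 10 lower of 35 (14.2% and 17.1%), and CLEC10A cDC2s 7 and 8 of 34 (7.88% and 9.28%). With the sample as a block, the NK cell counts were 2 and 11. The split of the calls by direction was different in 1 fit over all 18 sums, with each class against the unweighted mean of the other 8, which also had more sums to estimate the spread and tested 30 Gpr genes. There, higher and lower calls were 12 and 9 in macrophages, 11 and 3 in mature DCs, 12 and 6 in cDC1s, 5 and 1 in pDCs, 5 and 10 in B cells, 5 and 8 in T cells, 4 and 2 in NK cells, 10 and 3 in DCIR2 cDC2s and 12 and 3 in CLEC10A cDC2s. Without size factors, on the UMI totals, cDC1s had 6 higher and 15 lower genes.

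**Figure D2:**
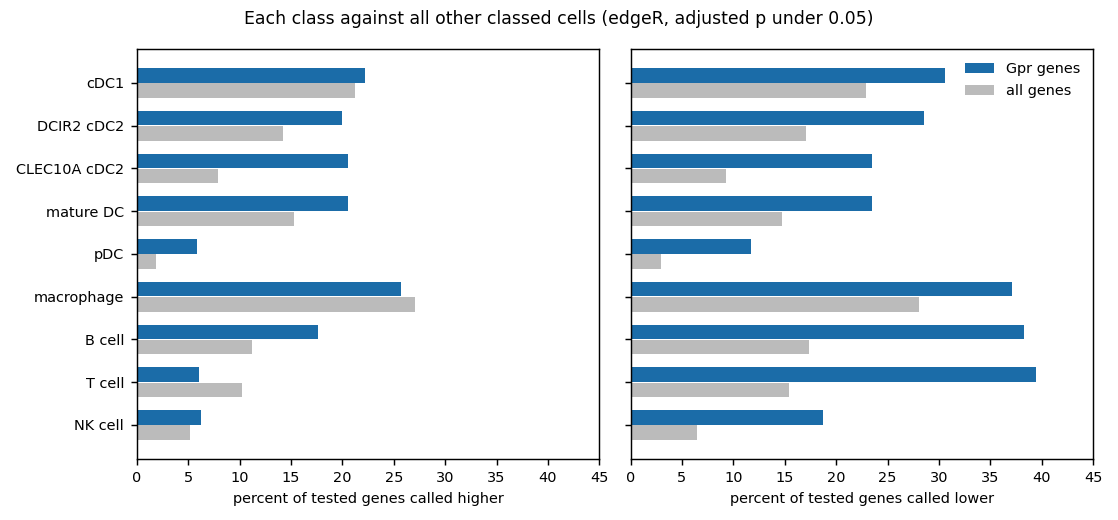
Share of the tested Gpr genes (blue) and of all tested genes (grey) called higher (left panel) and lower (right panel) in each cell class against all other classed cells, in percent. The share called lower reached 39.4% of the Gpr genes in T cells beside 15.4% of all genes, and the share called higher in macrophages was 25.7% beside 27.1%; no test compared these shares.

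The proton-sensing receptors Gpr132, Gpr65 and Gpr4 were each called in at least 1 class, beside 75.2% of all genes tested. Gpr132, the member of this family that has also been tied to oxidised fatty acids and lysophospholipids, stood at 1036 and 1152 CPM in mature DCs and 29.5 and 35.9 CPM in macrophages. All other class sums lay between 136 and 699 CPM, so that neither mature DCs nor macrophages overlapped any other class. Its log2 fold change against all other classed cells was 1.22 ± 0.10, adjusted p = 0.000536 in mature DCs and -4.14 ± 0.11, adjusted p = 2.33e-07 in macrophages (± standard error, here and below). The higher call in cDC1s, with 546 and 595 against 462 and 580.0 CPM and a log2 fold change of 0.37, rested on the size factors, since on UMI totals the value was 0.13 and was not called. At 3000 UMIs per cell, 92% and 89% of the mature DCs held a UMI of Gpr132, against 7.51% and 4.62% of the macrophages.

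Gpr65, which couples extracellular acid to cAMP in leukocytes, was highest where Gpr132 was lowest, with 881 and 990.2 CPM in macrophages and 95.2 and 86.5 CPM in mature DCs. cDC1s came next after macrophages with 319.7 and 328 CPM, and the 2 lowest sums were the 70.6 and 53.1 CPM of B cells. The macrophages did not overlap any other class. Their log2 fold change was 2.12 ± 0.082, adjusted p = 1.17e-06. At 3000 UMIs per cell 87% and 91.5% of the macrophages held a UMI of Gpr65, against 15.6% and 12.3% of the B cells. In the macrophages Gpr65 made up 50.2% and 52.0% of all Gpr UMIs, and Gpr132 made up 52.0% and 54.4% of those of the mature DCs.

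Gpr4, best known as the proton sensor of blood vessel endothelium, stood at 66.7 and 57.4 CPM in cDC1s, 13.9 and 12.6 CPM in CLEC10A cDC2s and 1.81 and 0.408 CPM in macrophages. The cDC1s did not overlap any other class, and their log2 fold change was 2.58 ± 0.12, adjusted p = 9.36e-05. Gpr132 thus stood highest in mature DCs, Gpr65 in macrophages and Gpr4 in cDC1s.

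**Figure D3:**
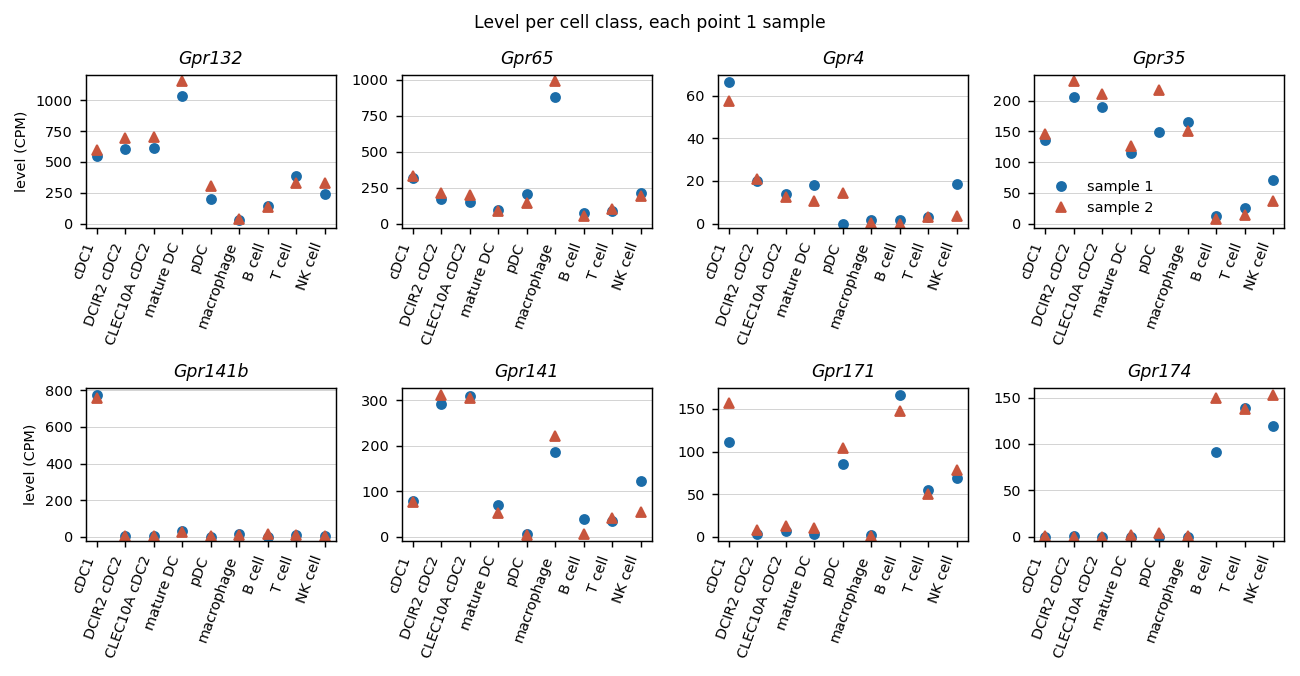
Level in CPM of 8 Gpr genes in each cell class, with 1 point per sample (circles sample 1, triangles sample 2) and an axis that differs between panels. Gpr141b reached 775 and 756 CPM in cDC1s and stayed under 34 CPM in the other classes, Gpr141 was below 80 CPM in cDC1s and about 300 CPM in both cDC2 classes, and Gpr174 was above 90 CPM only in B, T and NK cells.

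Of the 9 genes named for lipids or small metabolites, 5 could be tested, and all 5 were called in at least 1 class, beside 75.2% of all genes tested. Gpr174, a receptor for lysophosphatidylserine that is known from lymphocytes, was counted at 91.0 and 149.7 CPM in B cells, 138 and 138 CPM in T cells and 119 and 153 CPM in NK cells. In the 6 myeloid and pDC classes it lay between 0 and 3.61 CPM, the last being 1 UMI in the pDCs, so the lymphocytes did not overlap the rest. The log2 fold changes were 4.39 ± 0.51, adjusted p = 0.00184 in B cells, 4.32 ± 0.50, adjusted p = 0.00207 in T cells and 3.85 ± 0.74, adjusted p = 0.0257 in NK cells. The reference of each of these tests holds the other lymphocytes, which were more numerous in sample 2, and without sample 2 the values, with no test, were 5.21 in T cells and 5.0 in NK cells. The ranges of the 3 lymphocyte classes overlapped each other.

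Gpr55, a receptor for lysophosphatidylinositol, was highest in NK cells, with 42.4 and 27.2 CPM from 16 and 8 UMIs (2.61 ± 0.40, adjusted p = 0.0132), and sample 1 of the B cells came close to that range, at 26.7 CPM. In cDC1s it was at 1.05 and 0.592 CPM (-3.04). Gpr18, a receptor proposed for N-arachidonoyl glycine and resolvins, was called higher in B cells (84.8 and 96.6 CPM, 1.01), in CLEC10A cDC2s (70.9 and 75.6 CPM, 1.01) and in DCIR2 cDC2s (65.7 and 72.6 CPM, 0.89). The ranges of pDCs and NK cells overlapped all of these, and that of T cells overlapped both cDC2 classes. Gpr18 was not called in pDCs, NK cells or T cells, where the log2 fold changes were 0.62, 0.60 and 0.60. Levels of Gpr18 were 21.8 and 25.7 CPM in cDC1s and 2.89 and 2.85 CPM in macrophages, where it was lower by log2 fold changes of -0.98 and -3.95. The macrophages did not overlap any other class.

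Gpr35, which has been tied to kynurenic acid and lysophosphatidic acid, was found across the myeloid cells. It stood at 206 and 231 CPM in DCIR2 cDC2s (0.56 ± 0.084, adjusted p = 0.00498), 189 and 212 CPM in CLEC10A cDC2s (0.44 ± 0.084, adjusted p = 0.0198) and 12.6 and 7.37 CPM in B cells (-4.31 ± 0.23, adjusted p = 0.00018). B cells were below T cells (25.8 and 13.8 CPM), and both were below all other classes. Gpr34, a second receptor for lysophosphatidylserine, was at 78.3 and 71.4 CPM in macrophages (0.62, lost without the filter on low counts at 0.50) and 70.6 and 60.7 CPM in cDC1s, so that the lowest macrophage value lay only just above the highest cDC1 value. Its levels in B, T and NK cells lay between 6.52 and 19.3 CPM, with log2 fold changes of -2.50, -2.76 and -2.28. The receptors for lysophosphatidylserine were thus counted in different cells, Gpr34 above 40 CPM in macrophages, cDC1s and both cDC2 classes and Gpr174 above 90 CPM in lymphocytes.

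Of the 9 leukocyte orphans and relatives of the P2Y receptors, 7 could be tested and all 7 were called in at least 1 class, beside 75.2% of all genes tested. Gpr141b (chr13:19727426-19732951, minus strand, GRCm38) is annotated as a long non-coding RNA in GENCODE M21, while its neighbour Gpr141 (chr13:19749682-19824257, minus strand) is annotated as protein-coding, and 16730 bases lie between them. Gpr141b had 775 and 756 CPM in cDC1s, from 10284 and 8930 UMIs, and between 0 and 33.4 CPM in the other classes. No other class overlapped the cDC1s, and the log2 fold change was 6.65 ± 0.085, adjusted p = 8.37e-06. In the cDC1s, 94.6% and 95.4% of the cells held a UMI, against between 0% and 10.4% in the other classes, and at 3000 UMIs per cell the shares were 78.9% and 80.7% in cDC1s and between 0% and 5.26% elsewhere. It made up 31.4% and 29.9% of the Gpr UMIs of cDC1s. With all deposited cells the log2 fold change was 5.88. The highest values outside cDC1s, 33.4 and 26.0 CPM, were those of the mature DCs, of which 5 of 138 and 11 of 173 cells also met the minimums of cDC1s. cDC1 markers summed to 930 and 833 CPM in the mature DCs, against 6085 and 6179 CPM in cDC1s, and their part in this level was not tested.

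Gpr141 was distributed the other way among conventional DCs, with 291 and 311 CPM in DCIR2 cDC2s, 309.8 and 305 CPM in CLEC10A cDC2s and 78.1 and 75.9 CPM in cDC1s. The ranges of both cDC2 classes overlapped each other and no other class. Its log2 fold changes were 1.12 ± 0.093, adjusted p = 0.00066 in DCIR2 cDC2s, 1.14 ± 0.075, adjusted p = 0.000834 in CLEC10A cDC2s and -1.32 ± 0.078, adjusted p = 0.00018 in cDC1s. In macrophages it was at 185 and 221 CPM (0.39), a call that was lost without the filter on low counts, where the value was 0.28. The transcripts of Gpr141b and Gpr141 shared no run of 50 bases with each other or with any other gene.

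Gpr33, a receptor related to those for chemoattractants, was counted at 21 and 26.7 CPM in cDC1s and 3.78 and 8.5 CPM in mature DCs. It had no UMI in pDCs, B cells, T cells and NK cells, whose floors of 3 UMIs per class and sample lay between 2.21 and 16.0 CPM, so that levels below these were not detectable. The log2 fold change in cDC1s was 5.10 ± 0.26, adjusted p = 0.000119, and it was 5.95 without the cells that met several classes. A UMI of Gpr33 was held by 21.6% and 26.5% of the cDC1s, against 0.719% and 0% of the DCIR2 cDC2s, at median depths of 19520.5 and 20952.5 against 12205 and 12094.5 UMIs per cell. Gpr33 was called lower in B cells and in T cells. Counted against the floor, it was at least 1.83-fold and 5.25-fold lower in B cells than in all other classed cells and at least 4.73-fold lower in T cells of sample 2, while in T cells of sample 1 the floor of 9.66 CPM lay above the 8.55 CPM of the other cells and gives no bound.

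Gpr171, a P2Y-like receptor proposed for the peptide BigLEN, was present both in cDC1s (111 and 157 CPM) and in B cells (166 and 147 CPM), and the ranges of these classes overlapped. The log2 fold changes were 3.15 ± 0.37, adjusted p = 0.0016 in cDC1s and 1.24 ± 0.24, adjusted p = 0.0122 in B cells. In pDCs, T cells and NK cells it lay between 49.7 and 105 CPM, and in macrophages, mature DCs and both cDC2 classes between 0.408 and 13.2 CPM. These 4 classes stood apart from the other 5 in both samples.

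Gpr82, an orphan, was highest in DCIR2 cDC2s with 41.3 and 31.0 CPM (1.34 ± 0.17, adjusted p = 0.00295). It followed in CLEC10A cDC2s (27.1 and 23.9 CPM) and cDC1s (18.2 and 15.2 CPM) and was at 1.27 and 0.408 CPM in macrophages (-4.28). Gpr34 and Gpr82 are also neighbours, 20504 bases apart on chromosome X and both inside Cask on its other strand, but only Gpr34 was above 70 CPM in macrophages. Gpr146, a regulator of blood cholesterol in the liver, was higher in macrophages (67.1 and 58.3 CPM, 1.82 ± 0.14, adjusted p = 2.93e-05), and the pDCs overlapped this range with 53.3 and 75.8 CPM from 10 and 21 UMIs. Gpr160, an orphan proposed as a receptor for the peptide CART, stood at 30.4 and 25.7 CPM in macrophages against 1.27 and 2.06 CPM in all other cells (4.20 ± 0.28, adjusted p = 1.69e-05). At 3000 UMIs per cell 9.56% and 8.46% of the macrophages held a UMI of it, against 0.292% and 0.702% of the cDC1s. The shares were 7.69% and 5.26% among the 13 and 19 pDCs, and NK cells stood at 5.30 and 20.4 CPM.

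Of the 9 proteins of the series that sit on lysosomes, the Golgi or other inner membranes, 8 could be tested and 7 were called in at least 1 class, beside 75.2% of all genes tested. Gpr137b, a lysosomal membrane protein that acts on mTORC1, was at 119.8 and 131 CPM in mature DCs (1.53 ± 0.15, adjusted p = 0.00102) and 103 and 115 CPM in macrophages (1.41 ± 0.10, adjusted p = 2.7e-05). The conventional DCs lay between 29.7 and 53.2 CPM and did not overlap either class. Of the runs of 50 bases in its transcripts, 28.5% occur in other genes, nearly all in the pseudogene Gpr137b-ps, so its counts are uncertain. Gpr155, the lysosomal cholesterol sensor, was higher in pDCs (58.6 and 79.5 CPM from 11 and 22 UMIs, 1.57 ± 0.28, adjusted p = 0.0317), CLEC10A cDC2s (46.9 and 40.8 CPM, 1.39 ± 0.12, adjusted p = 0.00182) and DCIR2 cDC2s (42.6 and 37.5 CPM, 1.23 ± 0.12, adjusted p = 0.00102). It was at 4.7 and 2.45 CPM in macrophages and 8.59 and 8.29 CPM in cDC1s, which overlapped no cDC2 class. The pDC call was lost without the cells of several classes and with each UMI minimum raised by 1, where the log2 fold changes were 2.03 and 1.92.

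Of the other inner-membrane members, Gpr107 lay between 24.4 and 53.0 CPM, Gpr108 between 9.66 and 36.1 CPM and Gpr89, a Golgi pH regulator, between 3.61 and 41.9 CPM over all class sums. All 3 were called higher in macrophages, by 0.37, 0.35 and 0.54, and all 3 calls were lost with DESeq2, those of Gpr107 and Gpr108 also on UMI totals and without the filter on low counts. Gpr137 had log2 fold changes of 0.37 in cDC1s, -1.04 in B cells and -1.99 in T cells, and the call in cDC1s was lost on UMI totals and with DESeq2. Gpr137 shares exon sequence with Bad on the opposite strand, as Gpr155, Gpr107, Gpr137c, Gpr55, Gpr65 and Gpr89 do with other genes, and the sources do not say whether counting used the strand. Gpr137c was at 12.6 and 23.6 CPM in B cells from 8 and 32 UMIs (2.66 ± 0.41, adjusted p = 0.00522).

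Among the remaining genes, Gpr157, known from the cilia of neural progenitors, was highest in mature DCs, with 124 and 125 CPM (1.95 ± 0.10, adjusted p = 0.0001), and followed in cDC1s with 56.1 and 53.1 CPM (1.09 ± 0.10, adjusted p = 0.000757). Mature DCs did not overlap any other class. Gpr162, an orphan, was at 19.5 and 21 CPM in mature DCs (1.79), 16.8 and 17.3 CPM in CLEC10A cDC2s (1.73) and 1.66 and 1.35 CPM in cDC1s (-2.58). It was also called higher in DCIR2 cDC2s (12.7 and 9.66 CPM). The pDCs overlapped the mature DCs with 16.0 and 21.7 CPM from 3 and 6 UMIs and were not called. Gpr83, which marks regulatory T cells, was at 12.9 and 11.4 CPM in T cells from 4 and 14 UMIs (4.19 ± 0.47, adjusted p = 0.0019). Gpr45, an orphan of the nervous system, was called higher in pDCs (5.16 ± 0.60, adjusted p = 0.00925), but on 3 and 5 UMIs in 1 of 13 and 4 of 19 cells. Of the constitutive cAMP receptors, Gpr3 had 9 UMIs and Gpr12 none, so neither could be tested. Gpr161, a ciliary regulator of Hedgehog signalling, had 120 UMIs and none of them in macrophages, at least 3.23-fold and 1.21-fold lower than in all other classed cells against the floor of 3 UMIs.

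The comparison of cDC1s with both cDC2 classes together asked which Gpr genes separate the main lines of conventional DCs. Of 32 Gpr genes tested, 9 were higher and 13 lower in cDC1s, beside 24.4% and 23.9% of all genes. The higher genes included Gpr141b (775 and 756 CPM against 4.17 and 4.59; 7.62 ± 0.079, adjusted p = 8.12e-10), Gpr33 (6.44 ± 0.45, adjusted p = 8.61e-06, and 7.35 with raised UMI minimums), Gpr171 (4.31 ± 0.27, adjusted p = 4.56e-06) and Gpr4 (2.01 ± 0.10, adjusted p = 1.44e-06). Gpr157 (1.5), Gpr65 (0.99) and Gpr137b (0.78) were higher by less. Lower in cDC1s were Gpr162 (-3.01), Gpr155 (-2.13), Gpr141 (-1.81), Gpr18 (-1.41), Gpr82 (-0.75), Gpr146 (-0.47) and Gpr35 (-0.40). Gpr132 did not pass the test, with a log2 fold change of -0.02 ± 0.076, adjusted p = 0.857. On UMI totals the call of Gpr34 (0.51) was lost at 0.33, and with DESeq2 that of Gpr146 was.

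Mature DCs, which carry Ccr7 and have left the immature state, were compared with cDC1s and both cDC2 classes together. Of 31 Gpr genes tested, 9 were higher and 11 lower, beside 18.9% and 19.2% of all genes. Gpr157 (124 and 125 CPM against 38.9 and 38.9; 1.72 ± 0.10, adjusted p = 5.89e-06), Gpr137b (1.72 ± 0.13, adjusted p = 2.35e-05), Gpr162 (1.5 ± 0.23, adjusted p = 0.0014) and Gpr132 (0.89 ± 0.082, adjusted p = 8.16e-05) were higher. Lower were Gpr141b (-3.71), Gpr171 (-3.29), Gpr82 (-1.98), Gpr141 (-1.58), Gpr4 (-1.48), Gpr65 (-1.45), Gpr34 (-1.39) and Gpr155 (-0.82). Among the proton sensors, Gpr132 was thus higher and Gpr65 lower in mature DCs than in each conventional DC class. Gpr4 was lower than in the pooled cells and overlapped CLEC10A cDC2s. The larger negative values moved with the cells included. Without cells of several classes the log2 fold change was -4.78 for Gpr141b and -4.44 for Gpr171, and with all deposited cells -3.02 and -1.95. With raised UMI minimums it was -2.20 for Gpr141 and -2.24 for Gpr34. The value of Gpr82 was -1.36 without sample 1 and -3.03 without sample 2, and that of Gpr171 was -3.92 without sample 2, with no test. The call of Gpr155 was lost with DESeq2 and with raised minimums.

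**Figure D4:**
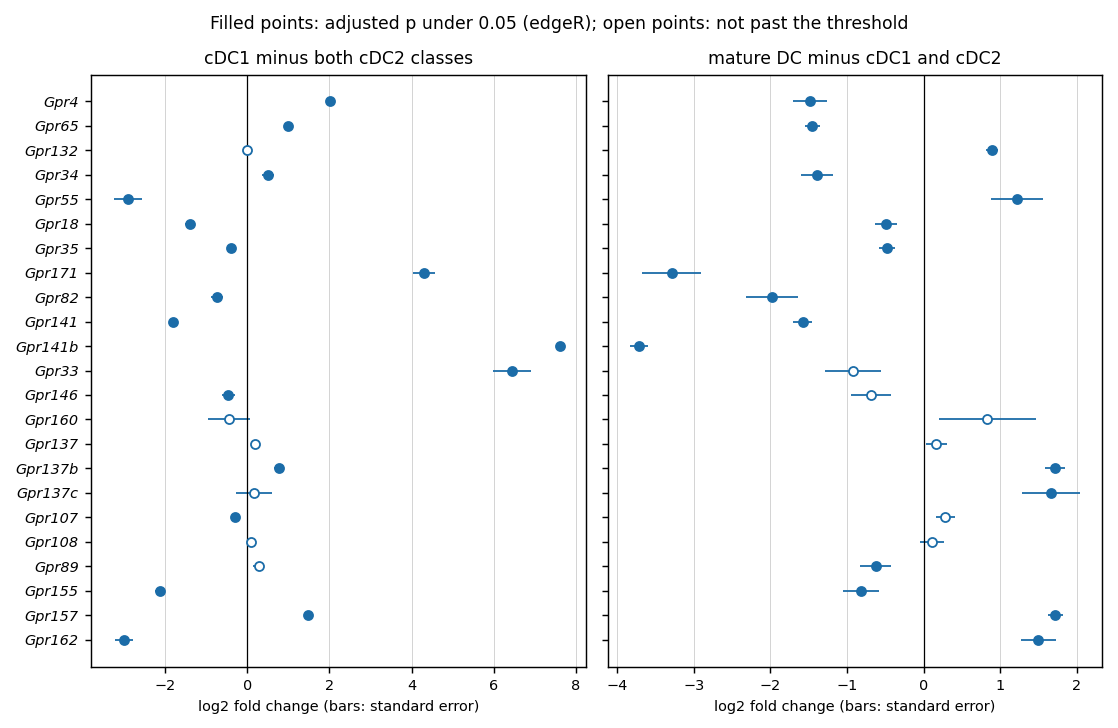
Log2 fold change with its standard error (bars) for Gpr genes in cDC1s minus both cDC2 classes (left) and in mature DCs minus cDC1s and cDC2s (right), from edgeR, with filled points for an adjusted p under 0.05. Gpr141b lay at 7.62 on the left and -3.71 on the right, while Gpr132 lay at -0.02 and 0.89; Gpr45, Gpr83 and Gpr174, which had few UMIs in these cells, are not drawn.

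Between the DCIR2 and CLEC10A cDC2 classes, of 27 Gpr genes tested by edgeR, 0 were higher and 2 were lower in DCIR2 cDC2s, beside 6.86% and 8.54% of all genes, with 8 of the 27 at an unadjusted p below 0.05 and 1 called by DESeq2. Gpr83, which falls under the level at which genes were chosen for naming and was added after its values were seen, had no UMI in DCIR2 cDC2s and 16 and 14 UMIs in CLEC10A cDC2s, at least 7.07-fold and 5.99-fold lower against a floor of 3 UMIs per sample. With the sample as a block, 1 gene was higher and 3 were lower, and on UMI totals 1 was higher and 1 lower. Without the cells that met the minimums of several classes, 4 genes were called.

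The number of Gpr genes found in a cell was compared after each cell had been thinned to 3000 UMIs, because the median depth of the classes ran from 6145 to 20952.5 UMIs per cell, and at most 1 cell of a class and sample was shallower and left out. A cDC1 then held a UMI of 4.13 ± 0.028 Gpr genes on average (SD, n = 2 samples), a DCIR2 cDC2 3.48 ± 0.042, a CLEC10A cDC2 3.38 ± 0.087, a mature DC 3.07 ± 0.061 and a macrophage 3.06 ± 0.044. The means were 2.86 ± 0.13 in pDCs and 2.78 ± 0.11 in NK cells. B cells with 1.95 ± 0.16 and T cells with 2.02 ± 0.14 were lowest, and their ranges overlapped each other and no other class. The cDC1s were above all other classes in both samples, and mature DCs and macrophages overlapped. Gpr141b, annotated as a long non-coding RNA, was held by 78.9% and 80.7% of the cDC1s at this depth. Elsewhere its share lay between 0% and 5.26%. Its share in cDC1s exceeds the distance to the DCIR2 cDC2 mean, so cDC1s would not stand highest without Gpr141b. Over all classed cells the mean was 3.40 ± 0.11 at this depth, and 7.41 ± 0.25 without thinning.

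**Figure D5:**
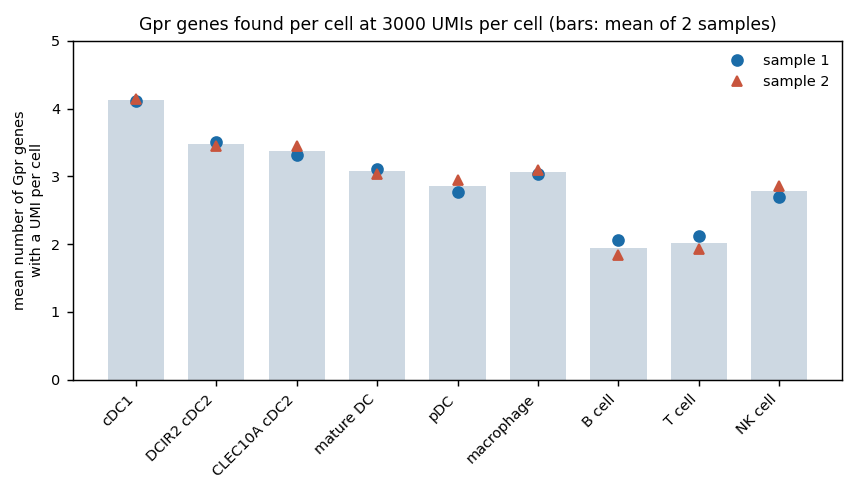
Mean number of Gpr genes with at least 1 UMI per cell in each class after thinning every cell to 3000 UMIs, with points for samples 1 and 2 and bars for their mean. cDC1s stood highest at 4.13, which they would not without Gpr141b, and B cells lowest at 1.95.

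The other genes of G protein signalling, 44 genes of G protein subunits, RGS proteins, receptor kinases, arrestins and related factors, were read from the same fits. In cDC1s against both cDC2 classes, 14 of 38 tested were higher and 9 lower, beside 24.4% and 23.9% of all genes, and among the beta and gamma subunits 5 of 7 tested were higher and 0 lower. Of the RGS genes, which speed up the turning off of G proteins, 2 were higher and 5 lower of 9, with Rgs1 at 228 and 231 CPM against 922 and 879 (-1.80) and Rgs10 at 247 and 252 CPM against 97.1 and 109 (1.45). In mature DCs against cDC1s and cDC2s, 9 of 39 were higher and 15 lower, beside 18.9% and 19.2% of all genes, including Gnb4 (2.88), Rgs1 (1.65), Arrb1 (-2.05) and Gna15 (-3.82). In macrophages 14 of 41 were higher and 13 lower, beside 27.1% and 28.1% of all genes, with Gna12 at 232 and 219.8 CPM against 22.1 and 21.5 (3.49), Arrb1 at 1.79, Arrb2 at 1.58 and Rgs18 at -4.28. In B cells 2 of 39 were higher and 19 lower, beside 11.2% and 17.4% of all genes, the higher ones being Grk6 (2.08) and Rgs14 (1.18). Between DCIR2 and CLEC10A cDC2s, 5 of the 8 RGS genes tested were higher and 1 lower, beside 6.86% and 8.54% of all genes, with values from 0.24 for Rgs2 to 0.87 for Rgs3, while Rgs10 was lower (-0.66).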

How the data were processed

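Single-cell RNA-Seq was measured in 2 wild-type samples of splenic CD11c+ cells from 1 multiplexed run. The other tagged samples of that run were not analysed here. The authors deposited UMI counts per cell and gene, without normalization, from the BD Rhapsody WTA Analysis Pipeline 1.12.1 (GRCm38 with PhiX, GENCODE vM19, refined cell calling, intronic reads counted, UMIs corrected by recursive substitution error correction). Intronic reads add UMIs to genes with long introns. The submitters' processing notes also name R 4.2.3 and Seurat 4.3.0.1. The members, classes and lists were chosen with earlier results of these data known.

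Depth was 46953398 and 43137746 UMIs. Cells with at least 200 genes and within the mean ± 3 median absolute deviations (times 1.4826) of mitochondrial percentage, genes and UMIs were kept. No doublets were removed; Scrublet in scanpy 1.11.5 called 0.939% of cells, and an alternative left them out. The samples shared 0 cell indices. UMIs were summed per class and sample and tested with edgeR 4.0.16 in R 4.3.3 (TMM, filterByExpr, quasi-likelihood test, 4 sums per comparison, Benjamini-Hochberg adjustment over all genes tested, threshold 0.05), and the 14 genes of the class thresholds were left out of the fits. Standard errors were taken as the size of the log2 fold change over the square root of the F statistic. Between 32 and 36 Gpr genes passed the filter in the class comparisons. Genes were named when called higher in a class, with 1 direction in both samples and 10 CPM or more in each sample of that class, and in the comparisons between DC classes when called at that level. Sums with the same number came from the same sample, so the numbers pair them. Their deviations correlated by 0.023 to 0.22 over genes, and fits blocked on the sample were also run. Both samples differed by more than the sampling noise (chi-square per degree of freedom 2.31 to 6.08). Alternatives were DESeq2 1.42.0, RLE size factors, UMI totals, no filter on low counts, all deposited cells, cells of 1 class only, raised UMI minimums, 1 fit over 18 sums and single samples. The fits were tested on simulated counts with 100 genes changed 4-fold and 100 changed 2-fold in each comparison. They recovered 50 (pDCs) to 93 of the 4-fold and 23 (pDCs) to 73 of the 2-fold changes. False calls numbered 7 to 37. The most were in T cells, beside 63 and 38 recovered changes. Macrophages had 28 beside 88 and 62 recovered changes, and cDC1s 24 beside 86 and 50. The share of false calls was larger than the threshold of 0.05 in all 9 class comparisons. It was also larger in cDC1s against both cDC2 classes, and below 0.05 in the other comparisons between DC classes. The values of 1 member are not reported here. Shares of cells and floors of 3 UMIs cover counting error only. Gene positions are from GENCODE M21 on the same build, promoters from RefSeq (49 of 69 members had an entry), and runs of 50 bases were compared over GENCODE M21 transcripts. Software was scipy 1.17.1, pandas 2.3.3, numpy 2.4.6 and matplotlib 3.10.9 under Python 3.11.15.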

Additional observations from a re-analysis of the deposited data

How the results depend on the processing

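Of the 72 named results, each a gene in a comparison, none changed direction under any alternative. These calls all held with RLE size factors, with all deposited cells, without called doublets and with the sample as a block, and so did the 42 class results in the fit over 18 sums. Calls were lost for 7 of 72 with DESeq2, 6 on UMI totals (chosen after seeing the data), 4 without the filter on low counts, 2 with raised UMI minimums and 1 of 71 without cells of several classes. The number of Gpr genes called in pDCs, 6, was 10 without the filter and 2 without cells of several classes. In NK cells, 8 became 15 without the filter and 13 with the replicate block. Between DCIR2 and CLEC10A cDC2s, 2 became 1 with DESeq2, 5 without the filter, and 4 with the replicate block, without cells of several classes or with raised minimums. The block changed none of the 72 named calls, while counts of calls moved by less than 1.5 times in the other comparisons, such as 13 to 12 lower genes in T cells. The mean number of Gpr genes per cell, 3.40, was 4.61 at 5000 UMIs per cell and 7.41 without thinning. Size factors moved the median log2 fold change of all genes by 0.24 in cDC1s, -0.22 in NK cells, 0.17 in cDC1s against cDC2s, -0.17 in pDCs, -0.16 in T cells, -0.14 in B cells, 0.11 in mature DCs and 0.10 in macrophages, and by less elsewhere. The fit over 18 sums moved 22 of 42 folds by more than 1.5 times. It changes the reference, the number of sums and the genes tested together, and the cause was not tested. Counts without 1 sample could not be tested, since no residual degrees of freedom remain. Depth limits pDCs, T cells and NK cells, where a floor of 3 UMIs reached 16.0 CPM.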

Other observations

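The 1218 kept cells that met no class were not part of any comparison. In them the Gpr genes together were at 1733 and 1837 CPM. Gpr132 stood at 636 and 684 CPM, Gpr141 at 245 and 263 CPM, Gpr35 at 173 and 204 CPM and Gpr65 at 159.7 and 219 CPM. Gpr141b was at 19.2 and 10.2 CPM and Gpr174 at 0.333 and 1.98 CPM.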
